A study of Homo sapiens with 4 samples.

Results

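The interleukin genes and their receptors described here were taken by a rule on the symbol that uses no measured value: all genes of the platform annotation whose symbol starts with IL, TNFSF or TNFRSF followed by a number. Of 14006 named genes 46 matched, each with 1 probe, and 46 of these 46 were interleukin symbols. The annotation used here named 0 probes for TNFSF and 0 for TNFRSF genes, so the TNF superfamily and its receptors are not analysed here and the set is called the interleukin genes. It held 24 ligands or secreted antagonists, 21 receptors or binding proteins, and IL4I1, an enzyme that oxidises amino acids and is an interleukin in name only. Interleukins are secreted proteins through which leukocytes, epithelial cells and tumour cells signal to one another, and each acts through receptor chains that pair at the cell surface. The receptors of the IL-1 family (IL-1, IL-18, IL-33 and IL-36) recruit the adaptor MYD88 and IRAK kinases and activate NF-kB, whereas most other interleukin receptors bind JAK kinases and activate STAT factors. In prostate cancer the family is best known for IL-6, which acts through STAT3.

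Expression arrays covered 4 human prostate cancer cultures, each measured once and without a replicate. PC3-L and PC3-H derive from PC3, an androgen-independent line that came from a metastasis in bone, and were separated with the antibody IIH6C4 into cells low (PC3-L) and high (PC3-H) for the laminin-binding glycan. LNCaP-AI is labelled as an androgen-independent derivative of LNCaP grown in charcoal-stripped serum and as low for the glycan; conditioned medium of perineural cells is mentioned in its free-text description. LNCaP came from a metastasis in a lymph node, depends on androgen by its characteristics and is labelled high. All 4 were grown in RPMI1640 with serum. By the labels PC3-L and LNCaP-AI move and invade strongly, and PC3-H and LNCaP weakly. The free-text descriptions of the PC3 pair give the glycan level the other way round, and under that reading every direction of the PC3 pair would turn. Each value below is a deposited intensity on a linear scale, and each fold change was computed after adding 1 and stands for 1 array against 1 array, so it carries no estimate of error. The number of arrays limits the precision.

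Arrays were first checked against the line labels. The LNCaP marker KLK3, prostate-specific antigen, was 61.2 on the array labelled LNCaP-AI against 1781 on LNCaP, and was 63.4 on PC3-L and 59.0 on PC3-H. Of 5 LNCaP markers past the filter 5 were at least 2-fold lower there than on LNCaP, against 5.13% of all genes. Of 8 PC3 markers 7 were at least 2-fold higher, against 5.45% of all genes. Among these 7, CXCL8 fell under 2-fold with 16 added to each value in place of 1 (log2 difference 0.71). CXCL8 went against a PC3 profile: it was 497 on PC3-L, 302 on PC3-H and 22.3 on LNCaP, but only 46.9 on the array labelled LNCaP-AI. That array correlated at r = 0.961 with PC3-L, 0.926 with PC3-H and 0.885 with LNCaP across all probes, which are not replicates. PC3-L correlated at 0.899 with PC3-H, and PC3-H at 0.9 with LNCaP, so r alone does not separate the lines here. By most line markers, though not by the cytokine gene LIF (described below), the array labelled LNCaP-AI thus goes against its line label. The name used for it below gives only what the label says. In its comparison with LNCaP, line and treatment cannot be told apart. Without that array, no second pair remains. Among markers of other cell types, 8 of 14 leukocyte genes had a probe, and their summed intensity was 925 on PC3-L and 602 on PC3-H, and 878 on the array labelled LNCaP-AI and 392 on LNCaP. These sums followed the lysosomal gene CD68. Without it the sums ran from 291 to 325 over the 4 arrays, and each of the other 7 genes stayed under 100. PTPRC, CD3D and CD3E were among the genes with no named probe. Fibroblast (67.3 to 76.1, 2 of 8 genes) and endothelial sums (170 to 198, 4 of 7 genes) varied little, and perineurial and Schwann cell genes (6 of 8) summed to 266 on PC3-L, 344 on PC3-H, 299 on the array labelled LNCaP-AI and 429 on LNCaP, where ERBB3 was high. The table has no probe value below 17.6, so no marker was at 0, and a part of other cells in the results below was not tested.

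Promoter sequences are shown for those members that differed by 2-fold or more in at least 1 comparison and had a single entry in the RefSeq promoter table (build GRCh38.p14), which was so for 4 of 7. IL18, IL31RA and IL7 are named only. Each window runs from 250 bases before the gene's start to 50 bases after it, 5′ to 3′. Capitals mark matches, on either strand, to GGG and TTTCC separated by any 2 bases (NF-kB), TGANTCA (AP-1) or TTCNNNGAA (STAT).
IL1RAP (chr3:190513835-190514134, plus strand): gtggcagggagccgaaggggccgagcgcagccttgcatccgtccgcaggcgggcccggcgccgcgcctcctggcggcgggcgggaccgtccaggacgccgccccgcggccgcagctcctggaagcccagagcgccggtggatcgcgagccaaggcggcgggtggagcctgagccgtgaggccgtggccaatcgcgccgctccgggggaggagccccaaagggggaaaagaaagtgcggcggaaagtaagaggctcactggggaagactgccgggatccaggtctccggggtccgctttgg
IL4R (chr16:27313724-27314023, plus strand): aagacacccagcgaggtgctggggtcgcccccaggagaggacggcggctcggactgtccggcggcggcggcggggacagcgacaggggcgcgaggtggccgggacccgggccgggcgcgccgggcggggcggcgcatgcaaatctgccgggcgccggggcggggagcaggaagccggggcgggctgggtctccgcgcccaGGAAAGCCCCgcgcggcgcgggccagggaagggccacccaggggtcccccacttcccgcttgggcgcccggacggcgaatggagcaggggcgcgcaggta
IL6R (chr1:154405093-154405392, plus strand): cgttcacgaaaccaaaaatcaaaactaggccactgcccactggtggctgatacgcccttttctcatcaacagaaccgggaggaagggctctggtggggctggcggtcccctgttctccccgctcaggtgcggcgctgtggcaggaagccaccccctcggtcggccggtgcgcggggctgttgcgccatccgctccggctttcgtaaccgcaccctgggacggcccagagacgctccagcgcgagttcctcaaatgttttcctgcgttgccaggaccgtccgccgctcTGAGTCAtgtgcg
IL7R (chr5:35856641-35856940, plus strand): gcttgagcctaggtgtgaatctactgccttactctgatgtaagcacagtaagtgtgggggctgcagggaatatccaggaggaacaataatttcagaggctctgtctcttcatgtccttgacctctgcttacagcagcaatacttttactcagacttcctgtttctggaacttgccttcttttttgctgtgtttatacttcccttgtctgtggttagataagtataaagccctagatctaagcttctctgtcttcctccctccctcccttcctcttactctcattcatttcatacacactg
The IL4R window held 1 NF-kB match, on the minus strand, and the IL6R window held 1 AP-1 match, which lies past the gene's start. No match was found in the IL1RAP and IL7R windows, and none of these matches overlapped another. Per single window, over all 35116 promoter windows of 300 bases, the NF-kB letters occurred in 1.91%, the AP-1 letters in 7.71% and the STAT letters in 7.66%. Of the 35 members with an entry, 4 had an NF-kB match, 9 an AP-1 match and 5 a STAT match in at least 1 window. Counted the same way, per gene over its windows, 2.33% of 27305 genes had the NF-kB letters, 9.37% the AP-1 letters and 9.38% the STAT letters. A match describes these letters and is not a measured site.

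A gene was kept in a comparison when the brighter of its arrays reached the 40th percentile of that array over all probes, which lay between 33.6 and 34.8. Of the 46 members 34 (73.9%) reached it on at least 1 array, against 82.2% of all genes, and 20 reached it on all 4. The 12 that reached it on none are at levels the arrays cannot rank, between 20.9 and 34.3. They were the ligands IL4, IL10, IL15, IL17F, IL20, IL22 and IL31 and the receptor genes IL18RAP, IL1RL1, IL1RL2, IL1RAPL1 and IL1RAPL2. A signal at that level does not show that the gene is silent. Of the 34, 19 (55.9%) varied by less than 1.5-fold over the 4 arrays, a share near the 51.2% of all genes.

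**Figure D1:**
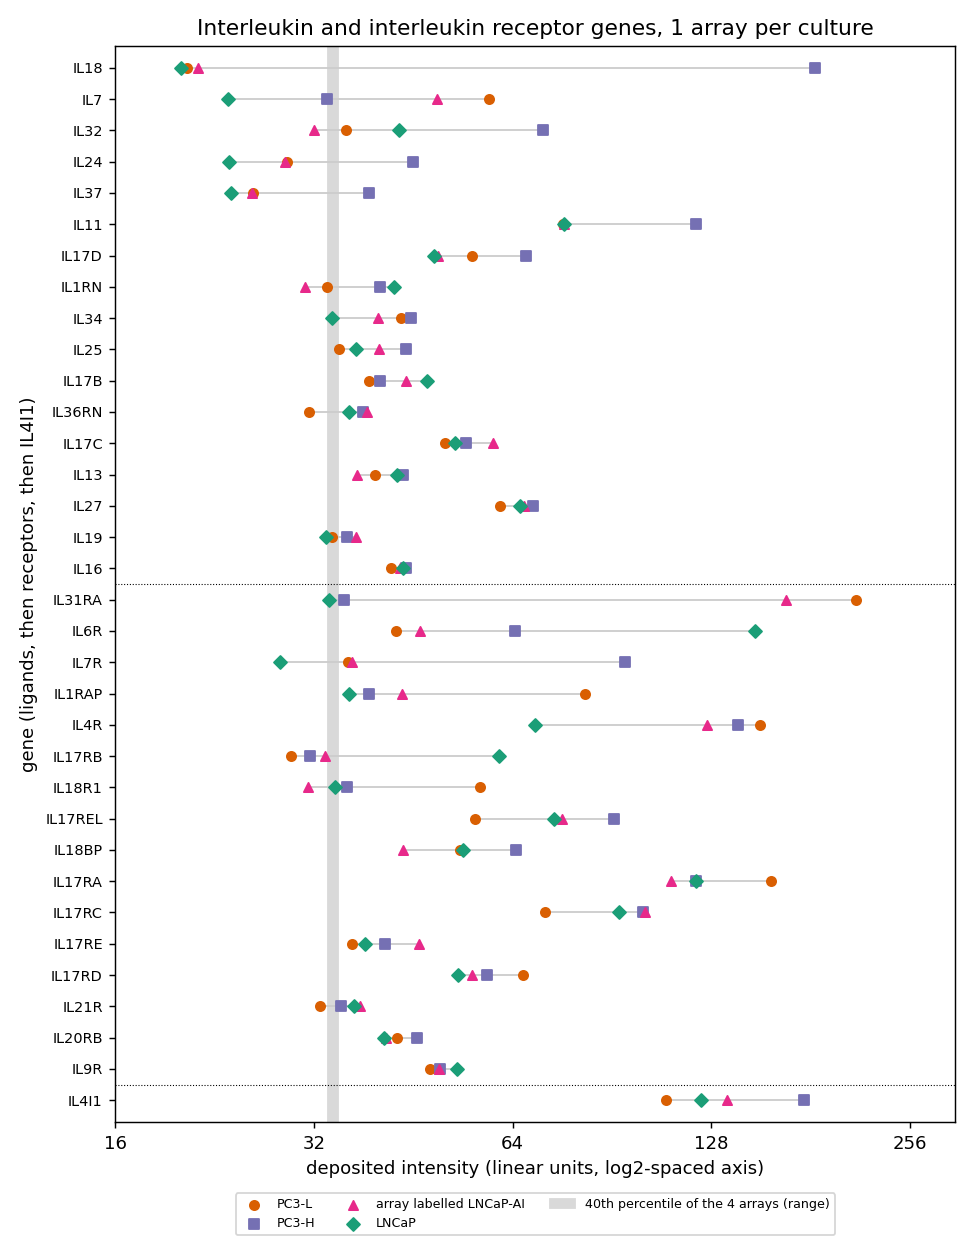
Deposited intensity (x axis, log2-spaced) of the 34 interleukin genes that reached the filter on at least 1 array, 1 point per array, ordered within ligands and receptors by the spread between arrays; the grey band is the range of the 40th percentile of the 4 arrays. IL18 stands alone on PC3-H, IL31RA is high on the PC3-L array and that labelled LNCaP-AI, and 19 genes vary by less than 1.5-fold.

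Among the 34, the highest value was on PC3-L for 7 members, on PC3-H for 16, on the array labelled LNCaP-AI for 6 and on LNCaP for 5. The 16 on PC3-H were 47.1%, against 28.2% of all genes. The share was 38.2% (13 members, against 26.4% of all genes) after cyclic loess normalization. It was 44.1% (15 members, against 26.1%) after centring each array on its median. Differences behind this count were often small: 2 of the members were at least 2-fold above every other array on PC3-H (IL18 and IL7R), against 1.23% of all genes, and 1 was on LNCaP (IL6R), against 1.99%. On PC3-L 0 members stood out in this way, against 0.808% of all genes, and on the array labelled LNCaP-AI 0, against 0.382%.

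PC3-L was compared with PC3-H to see which interleukin genes go with low glycan between cultures of the PC3 label. The receptor IL31RA and the co-receptor IL1RAP were higher on PC3-L, and the cytokine IL18 and the receptor IL7R were lower. Of 33 members past the filter 2 (6.06%) were at least 2-fold higher, against 8.58% of all genes, and 2 were at least 2-fold lower, against 3.77%. Neither share is far from the background. The median log2 difference of the 33 was −0.16, beside −0.02 for all genes. It was −0.27 with the filter at the 60th percentile (19 members) and −0.09 after cyclic loess. Of the 33, 26 (78.8%) lay below 0, against 51.6% of all genes. After cyclic loess 22 of 33 (66.7%) lay below 0, against 47.1% of all genes.

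IL18 encodes a cytokine of the IL-1 family that is released after cleavage by caspase-1 and is known for inducing interferon gamma in lymphocytes. Its intensity was 20.5 on PC3-L and 184 on PC3-H. It was 21.3 on the array labelled LNCaP-AI, against 20.1 on LNCaP. PC3-H alone carried a readable signal, and the other 3 arrays lay close to the lowest value of the table. The difference was 8.59-fold lower on PC3-L (log2 difference −3.10), and with 1 side near the floor this fold may be understated. The receptor side of the same pathway did not follow. IL18R1, the ligand-binding chain, stood at 57.0 on PC3-L and 36.0 on PC3-H, and 31.3 on the array labelled LNCaP-AI against 34.5 on LNCaP. IL18R1 was brightest on PC3-L, at 1.57-fold over PC3-H, and was close to the filter level on the other 3 arrays. IL18RAP, the signalling chain, was below the filter on every array. IL18BP, the secreted antagonist that binds IL-18, had 53.2 on PC3-L and 64.8 on PC3-H, and 43.6 against 53.8 in the other pair. IL18R1, IL18RAP, IL1RL1 and IL1RL2 are neighbours with 0 protein-coding genes between them, and only IL18R1 of these 4 reached the filter.

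IL1RAP encodes the accessory chain shared by the receptors for IL-1, IL-33 and IL-36. It had 82.4 on PC3-L and 38.7 on PC3-H, and 43.5 on the array labelled LNCaP-AI against 36.1 on LNCaP. It was 2.10-fold higher on PC3-L, where it stood above all other arrays, and was within 2-fold when 16 was added to each value in place of 1 (log2 difference 0.85). IL1RN, the IL-1 receptor antagonist, read 33.5 on PC3-L and 40.3 on PC3-H, and 31.0 on the array labelled LNCaP-AI against 42.4 on LNCaP. IL36RN, the matching antagonist of the IL-36 receptor, stayed between 31.5 and 38.5. IL1RN and IL36RN were both within 2-fold in the 2 pairs.

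IL7R encodes the receptor chain shared by IL-7 and TSLP. Its intensity stood at 36.0 on PC3-L and 94.8 on PC3-H, which is 2.59-fold lower on PC3-L, and 36.5 on the array labelled LNCaP-AI against 28.4 on LNCaP. It was high on PC3-H alone. Its ligand gene IL7, a growth factor of lymphocytes, ran the other way. IL7 stood at 59.0 on PC3-L and 33.5 on PC3-H (1.74-fold, short of the threshold), and 49.2 on the array labelled LNCaP-AI against 23.7 on LNCaP (2.03-fold higher). Both arrays with a low glycan label were above both with a high label for IL7, and the latter 2 were below the filter level. The share of all genes with that order is not given here.

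Several further ligands were brightest on PC3-H without reaching 2-fold. IL32, which encodes a secreted inducer of inflammatory cytokines, had 35.8 on PC3-L and 71.2 on PC3-H, a 1.96-fold difference that just missed the 2-fold threshold. IL24, a ligand of the IL-10 family, read 29.1 on PC3-L and 45.1 on PC3-H, and 28.9 on the array labelled LNCaP-AI against 23.8 on LNCaP. IL11, a ligand that signals through the IL-6 co-receptor, measured 76.3 on PC3-L and 121 on PC3-H, and was 76.5 on both arrays of the other pair. IL37, an IL-1 family member that dampens inflammation, stood at 25.9 on PC3-L and 38.7 on PC3-H. These 4 ligands are named because they were brightest on PC3-H, as were 28.2% of all genes, and they stood out by much less than IL18. Among the other ligands that reached the filter, IL7, IL17B, IL17C, IL19, IL1RN and IL36RN were brightest on another array. IL10, IL19, IL20 and IL24 lie side by side in the genome with 0 protein-coding genes between them, and of these IL24 and IL19 reached the filter, IL19 with values from 33.3 to 37.1.

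**Figure D2:**
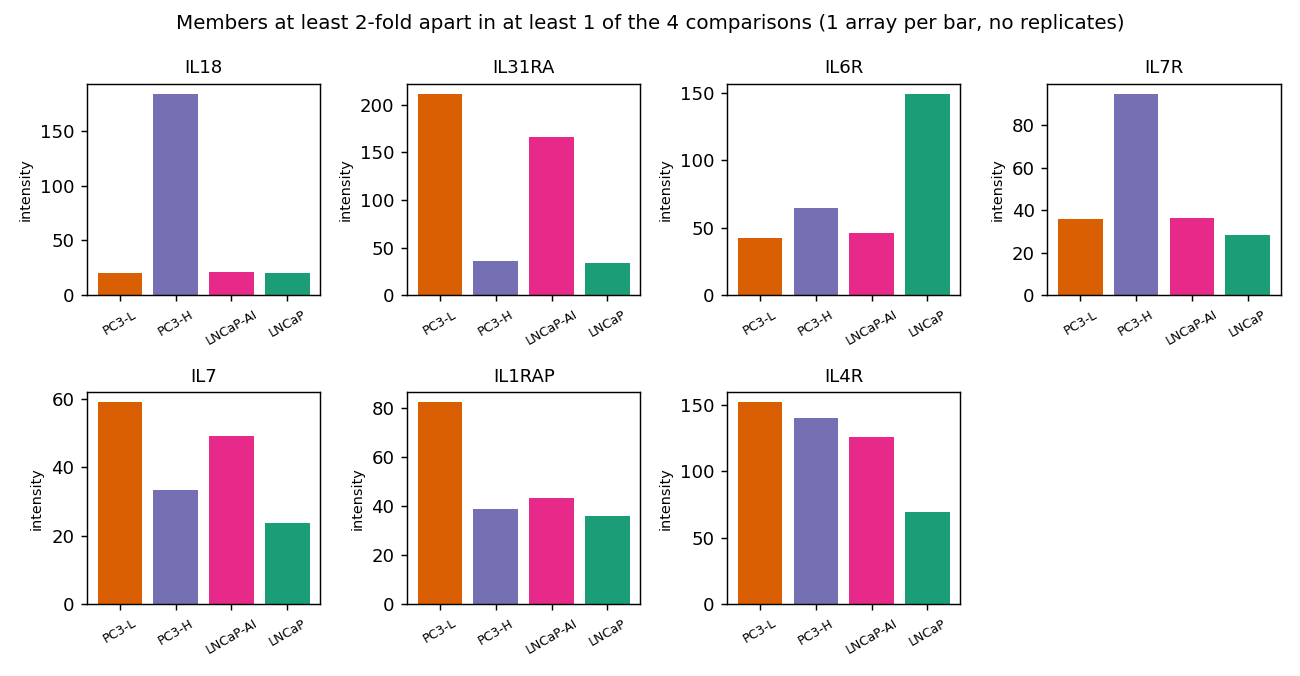
Deposited intensity (y axis, from 0, linear units, own scale in each panel) of the 7 members that differed by 2-fold or more in at least 1 of the 4 comparisons; each bar is 1 array and has no error. IL18 and IL7R are high on PC3-H alone, IL31RA and IL7 on the PC3-L array and that labelled LNCaP-AI, IL6R on LNCaP and IL1RAP on PC3-L, while IL4R is lowest on LNCaP.

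The array labelled LNCaP-AI was compared with LNCaP, the second pair the study names. The limit is that the array goes against its line label by most line markers. The receptor IL31RA and the ligand IL7 were higher on it, and the receptor IL6R was lower. Of 31 members past the filter 2 (6.45%) were at least 2-fold higher, against 5.45% of all genes, and 1 (3.23%) was lower, against 5.13%. Both shares are near the background. The median was 0.03, beside 0.00 for all genes. IL7 was lost from the count with 16 added to each value or with the filter at the 60th percentile, which left IL31RA.

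IL31RA encodes the ligand-binding chain of the IL-31 receptor, which pairs with the oncostatin M receptor OSMR and signals through JAK1 and JAK2. It had 212 on PC3-L and 35.6 on PC3-H, and 166 on the array labelled LNCaP-AI against 33.7 on LNCaP. The 2 arrays with a low glycan label were bright and the 2 with a high label lay at about the filter level. IL31RA was 5.82-fold higher on PC3-L than on PC3-H, and the second pair differed by 4.82-fold in the same direction. It was the only member of the 30 past the filter in both pairs that was at least 2-fold higher in both (3.33%, against 2.20% of all genes), and 0 were lower in both, against 1.06%. With the PC3 pair turned, as its free-text descriptions have it, 0 of 30 were higher in both (against 0.139% of all genes) and 0 lower (against 0.335%). Its partner OSMR had 331 on PC3-L and 200 on PC3-H (1.65-fold), and 174 on the array labelled LNCaP-AI against 40.9 on LNCaP (4.17-fold higher). OSMR was thus low on LNCaP alone, whereas IL31RA was low on PC3-H as well. The leukocyte list moved with IL31RA through CD68, which read 630 on PC3-L and 290 on PC3-H, and 553 on the array labelled LNCaP-AI against 102 on LNCaP; its part in the IL31RA difference was not tested. In whole cultures, fewer cells with a transcript and less of it per cell cannot be told apart. The ligand gene IL31 did not reach the filter on any array.

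IL6R encodes the ligand-binding chain of the IL-6 receptor; its co-receptor gene IL6ST and IL6 itself are not analysed here. IL6R had 42.6 on PC3-L and 64.6 on PC3-H, and 46.3 on the array labelled LNCaP-AI against 149 on LNCaP. LNCaP was the only bright array, 3.17-fold above the array labelled LNCaP-AI, and the PC3 pair differed by 1.51-fold in the same direction. The LNCaP markers were also highest there, with sums of 251 on the array labelled LNCaP-AI and 4020 on LNCaP. ERBB3, from the perineurial and Schwann cell list, was highest there too (40.6 against 188). It was the only 1 of the 6 genes of that list past 2-fold in this pair. In the same pair 4 of the 6 were dimmer on LNCaP, each by less than 2-fold, so the list as a whole did not follow ERBB3. The part of these markers in the IL6R difference was not tested. IL17RB, a receptor for IL-17B and IL-25, was also brightest on LNCaP, the only array on which it reached the filter: 29.5 on PC3-L and 31.6 on PC3-H, and 33.2 on the array labelled LNCaP-AI against 61.0 on LNCaP. The ligands of that receptor, IL17B (38.8 to 47.5) and IL25 (34.9 to 44.1), varied little. IL4R, the chain shared by the IL-4 and IL-13 receptors, measured 152 on PC3-L and 140 on PC3-H, and 126 on the array labelled LNCaP-AI against 69.2 on LNCaP (1.81-fold). IL4R was lowest on LNCaP and nearly level on the other 3 arrays. Its neighbour IL21R stayed between 32.7 and 37.6.

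**Figure D3:**
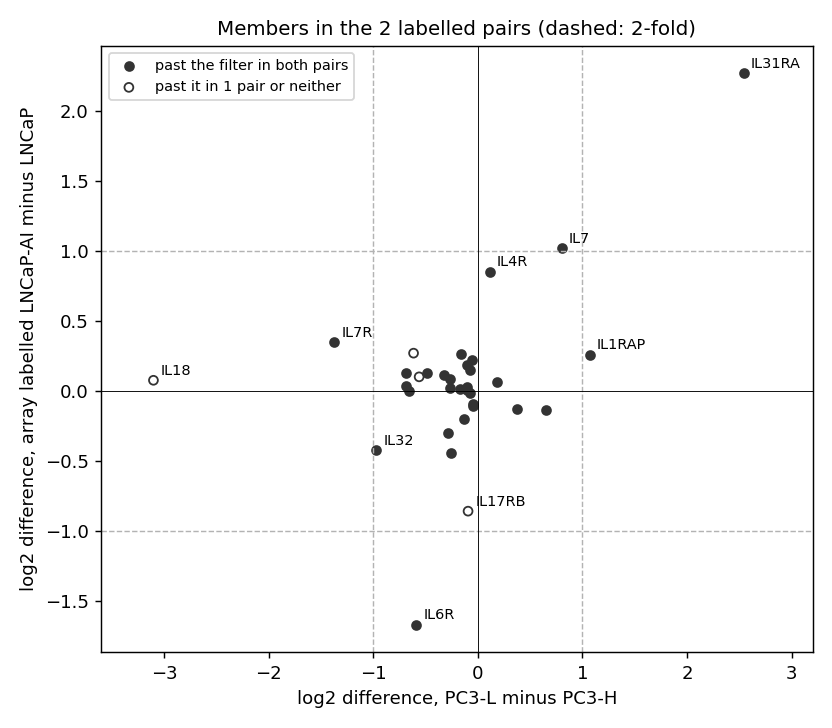
Log2 difference of PC3-L minus PC3-H (x axis) against the array labelled LNCaP-AI minus LNCaP (y axis) for the 34 members that reached the filter on any array, 1 point per gene; dashed lines mark 2-fold and open points passed the filter in 1 pair or neither. IL31RA lies at 2.54 and 2.27, IL18 at −3.10 and 0.08, and IL6R at −0.59 and −1.67.

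The array labelled LNCaP-AI was also compared with PC3-L. Both carry a low glycan label, and the first goes against its line label by most line markers. Of 29 members past the filter 0 were at least 2-fold higher, against 0.832% of all genes, and 0 lower, against 1.96%. The 2 largest differences were in IL-1 family receptors. IL1RAP was 43.5 on the array labelled LNCaP-AI against 82.4 on PC3-L (log2 difference −0.91), and IL18R1 was 31.3 against 57.0 (−0.85). IL31RA was 166 against 212 (−0.35). The LIF and CXCL8 genes, which lie outside the symbol rule, were the exceptions among related cytokines: LIF, a ligand of the IL-6 family, was 35.9 against 214, and the chemokine CXCL8 was 46.9 against 497. No member differed by as much between these arrays. For LIF, PC3-H read 241 and LNCaP 42.0. By this gene the array labelled LNCaP-AI was near LNCaP and far from both PC3 cultures, as its line label has it.

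LNCaP was compared with PC3-H, the 2 cultures with a high glycan label, to see how the members differ by line. IL6R was higher on LNCaP, and IL18, IL7R and IL4R were lower. Of 33 members past the filter 1 (3.03%) was higher, against 5.46% of all genes, and 3 (9.09%) were lower, against 4.49%. IL6R had 149 on LNCaP against 64.6 on PC3-H (2.29-fold). IL18 had 20.1 against 184 (8.75-fold lower), IL7R had 28.4 against 94.8 (3.26-fold lower) and IL4R had 69.2 against 140 (2.01-fold lower). IL4R was within 2-fold after centring each array on its median (log2 difference −0.99). This comparison shares its arrays with the 2 labelled pairs, so it is no independent sight of IL18, IL7R or IL6R.

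**Figure D4:**
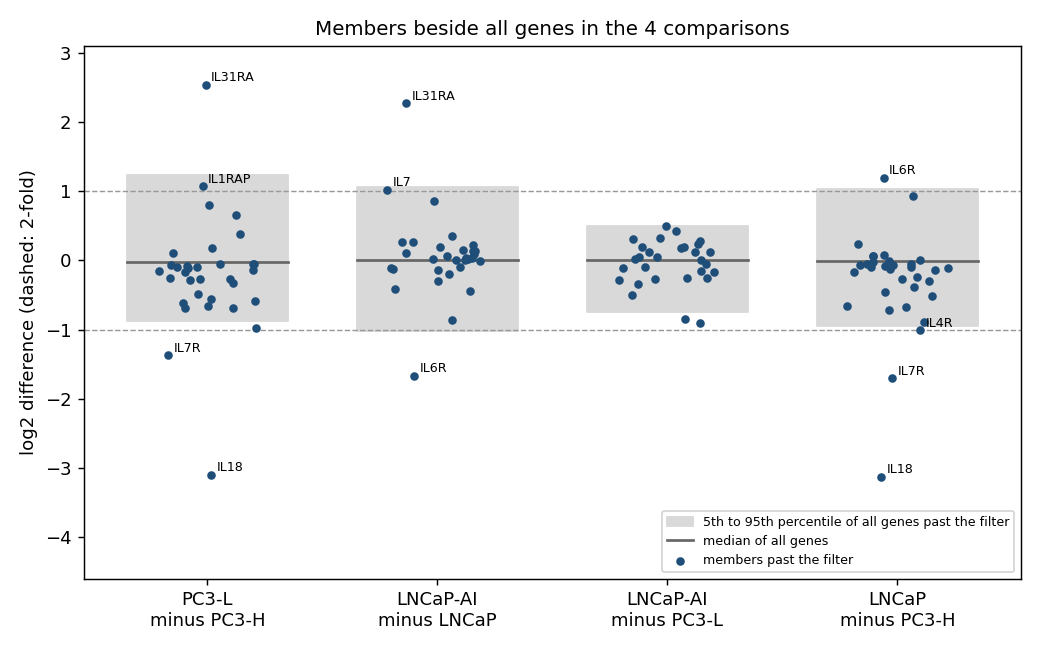
Log2 difference (y axis) of the members past the filter in each of the 4 comparisons (points, spread sideways for legibility), beside the 5th to 95th percentile (grey) and the median (line) of all genes past the filter; dashed lines mark 2-fold. IL31RA in the 2 labelled pairs, IL18 and IL7R in both comparisons with PC3-H, IL6R in both comparisons with LNCaP, and IL4R in LNCaP minus PC3-H lie outside the grey range at or past 2-fold.

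No gene of the IL-17 system that reached the filter differed by 2-fold in any of the 4 comparisons, and IL17RB, described above, came closest. IL17RA, the chain common to most IL-17 receptors, stood at 158 on PC3-L and 121 on PC3-H, and 111 on the array labelled LNCaP-AI against 121 on LNCaP. IL17RC, its partner for IL-17A and IL-17F, had 71.6 on PC3-L and 101 on PC3-H, and 102 against 92.6 in the other pair. IL17RC stands next to IL17RE in the genome, and IL17RE read 36.5 on PC3-L and 40.9 on PC3-H, and 46.2 against 38.2. IL17RD, a receptor known as an inhibitor of fibroblast growth factor signalling, stayed between 52.9 and 66.4, and IL17REL lay between 56.0 on PC3-L and 91.2 on PC3-H. Among the ligands IL17C ran from 50.6 to 59.7 and IL17D from 48.6 to 67.1. IL4I1, the amino acid oxidase, measured 109 on PC3-L and 177 on PC3-H, and 135 on the array labelled LNCaP-AI against 123 on LNCaP.

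The 2 arrays with a low glycan label were set against the 2 with a high label in the 1 comparison that allowed a test. limma was fitted with the labelled line as covariate, which left 1 residual degree of freedom. That residual is the disagreement between the 2 labelled pairs, and limma combined it with a prior from all genes (3.32 degrees of freedom). Its p-values therefore do not measure a spread between replicates, which these data lack. The fit treats the array labelled LNCaP-AI and LNCaP as 1 line, which most of the line markers go against. At an adjusted p under 0.05 limma called 0 of 34 members and 0 of 11509 genes (0%). At an unadjusted p under 0.05 it gave 3 of 34 members (8.82%), against 8.81% of all genes. These were IL31RA (log2 difference 2.40, higher on both arrays with a low label, limma adjusted p = 0.200), IL7 (0.91, limma adjusted p = 0.404) and IL6R (−1.13, limma adjusted p = 0.479). With a prior variance that follows intensity limma called 115 genes and 1 member, IL31RA (limma adjusted p = 0.0215). The result depends on which PC3 culture is taken as low. With the PC3 pair turned, an alternative chosen after seeing the data, limma called 0 members and 0 genes, and at an unadjusted p under 0.05 it gave 0 members and 300 genes. The log2 differences were then −0.14 for IL31RA, 0.11 for IL7 and −0.54 for IL6R (limma adjusted p = 0.998 for each).

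Genes that carry interleukin and TNF signals inside the cell, or belong to related cytokines, were read from lists of known pathway members. Their counts stand beside the share of all genes past 2-fold, which was 8.58% higher and 3.77% lower in the PC3 pair and 5.45% higher and 5.13% lower in the second pair. The lists are short, so 1 gene moves a share by several points. For JAK-STAT signalling 2 of 15 genes (13.3%, against 8.58% of all genes) were at least 2-fold higher on PC3-L than on PC3-H and 0 lower (against 3.77%), and in the second pair 1 of 15 (6.67%, against 5.45%) was higher and 0 lower (against 5.13%). JAK1, a kinase of many interleukin receptors including that for IL-31, stood at 559 on PC3-L and 304 on PC3-H, and 376 on the array labelled LNCaP-AI against 41.1 on LNCaP (8.94-fold). JAK1 was low on LNCaP alone, the same array as OSMR. JAK2 had 121 on PC3-L and 45.5 on PC3-H (2.63-fold), and 90.1 against 64.1 in the other pair. STAT3, the factor downstream of IL-6 and IL-31, read 323 on PC3-L and 161 on PC3-H (2.00-fold), and 396 on the array labelled LNCaP-AI against 473 on LNCaP. The STAT3 difference of the PC3 pair was under 2-fold after quantile normalization (log2 difference 0.86) or cyclic loess (0.91).

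Among adaptors of the IL-1 and TNF receptors 2 of 19 were higher (10.5%, against 8.58% of all genes) and 2 lower (10.5%, against 3.77%) on PC3-L, and in the second pair 2 of 19 were higher (10.5%, against 5.45%) and 0 lower (against 5.13%). MYD88, the adaptor of IL-1 and IL-18 receptors, measured 43.6 on PC3-L and 125 on PC3-H (2.84-fold lower), and 37.4 on the array labelled LNCaP-AI against 73.6 on LNCaP (1.94-fold lower). The kinase gene IRAK2 stood at 66.8 on PC3-L and 151 on PC3-H, and 74.7 against 61.3. Both were brightest on PC3-H, as were IL18 and 28.2% of all genes. TAB2, which links TRAF6 to the kinase TAK1, had 155 on PC3-L and 65.3 on PC3-H, and 97.4 against 100. IRAK1 read 223 on PC3-L and 345 on PC3-H, and 277 on the array labelled LNCaP-AI against 126 on LNCaP (2.19-fold). MAP3K7, which encodes TAK1, measured 309 on PC3-L and 145 on PC3-H (2.12-fold), and 235 against 110 (2.12-fold).

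For NF-kB 2 of 13 genes were higher (15.4%, against 8.58% of all genes) and 1 lower (7.69%, against 3.77%) on PC3-L, and 0 of 12 passed 2-fold in the second pair (against 5.45% higher and 5.13% lower). TNIP3, a binding partner of the NF-kB inhibitor TNFAIP3, stood at 109 on PC3-L and 24.8 on PC3-H (4.28-fold), and 33.5 against 21.5. Its relative TNIP1 ran the other way, at 140 on PC3-L and 396 on PC3-H (2.83-fold lower), and 125 against 103. The kinase TBK1 had 153 on PC3-L and 69.9 on PC3-H, and 104 on the array labelled LNCaP-AI against 144 on LNCaP. The subunit genes NFKB1, NFKB2, RELA, RELB and REL were within 2-fold in both pairs.

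In the inflammasome list, whose products process IL-18 and IL-1, 1 of 5 genes was higher (against 8.58% of all genes) and 2 were lower (against 3.77%) on PC3-L, and in the second pair 0 of 4 were higher (against 5.45%) and 1 was lower (against 5.13%). CASP1 is not analysed here. PYCARD, the adaptor that brings caspase-1 to the inflammasome, read 35.2 on PC3-L and 82.6 on PC3-H (2.31-fold lower), and 41.3 on the array labelled LNCaP-AI against 42.5 on LNCaP. PYCARD was brightest on the array that carried IL18, PC3-H, as were 28.2% of all genes. NEK7 was lowest on that array, with 134 on PC3-L and 60.7 on PC3-H, and 98.1 against 101. TXNIP, a redox protein that binds NLRP3, stood at 29.0 on PC3-L and 143 on PC3-H, and 62.1 on the array labelled LNCaP-AI against 201 on LNCaP, though over all its probes the second difference was under 2-fold (log2 difference −0.79).

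In the death receptor list 2 of 7 genes were higher (28.6%, against 8.58% of all genes) and 0 lower (against 3.77%) on PC3-L, and 1 of 7 was higher (14.3%, against 5.45%) and 0 lower (against 5.13%) in the second pair. The apoptosis inhibitors BIRC2 (255 on PC3-L and 85.7 on PC3-H) and CFLAR (145 against 59.2) made up the first count. MLKL, the effector of necroptosis, was 95.8 on the array labelled LNCaP-AI against 37.2 on LNCaP, with 143 on PC3-L and 154 on PC3-H. Of related cytokines and receptors outside the symbol rule 0 of 21 passed 2-fold in the PC3 pair (against 8.58% of all genes higher and 3.77% lower), and 2 of 20, OSMR and CXCL8, were higher in the second pair (10.0%, against 5.45%). TNF itself stayed between 34.7 and 37.5.

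**Figure D5:**
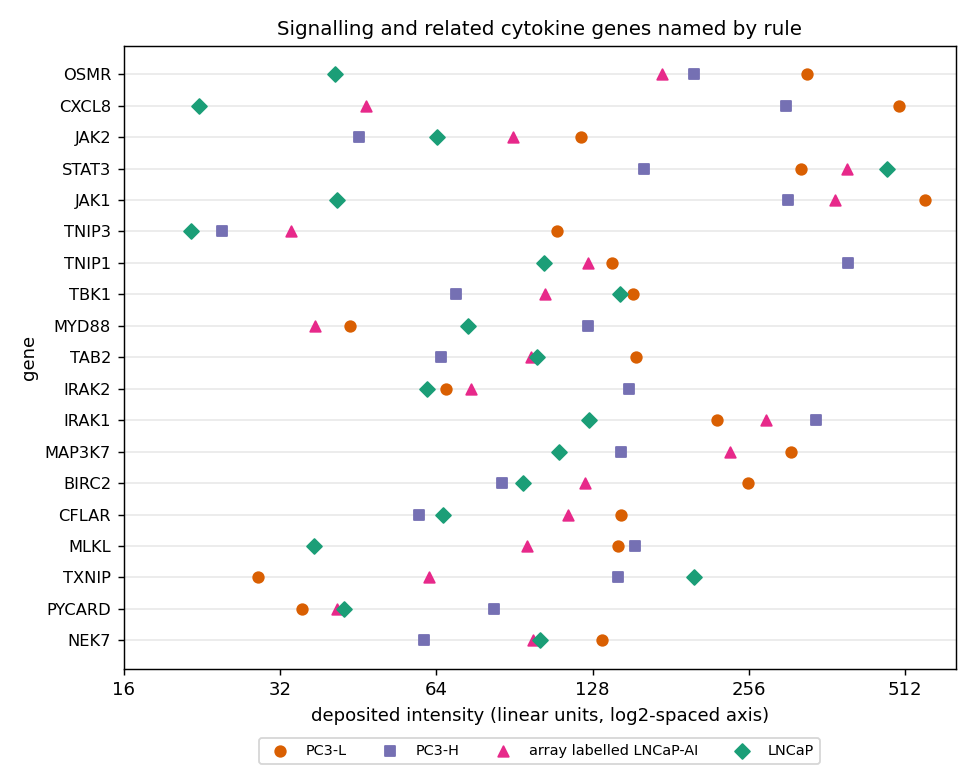
Deposited intensity (x axis, log2-spaced) of the 19 signalling and related cytokine genes chosen by size of difference from these lists, 1 point per array. JAK1, OSMR and MLKL are lowest on LNCaP, and MYD88, IRAK2, PYCARD and TNIP1 are highest on PC3-H.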

How the data were processed

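Total RNA of 4 cultures was biotin-labelled with the GeneChip WT Terminal Labeling Kit, per the labels' protocols. The values deposited by the authors are array intensity on a linear scale, judging by their range (17.6 to 11188), with nearly equal medians (39.8 to 41.2); summarisation and normalization are not given in the sources used here. The design text names GeneSpring GX 12.6. Genes were named from the platform annotation (14952 of 37934 probes had 1 symbol) and the probe with the highest mean stood for a gene. Values were taken to log2 after adding 1, and pairs compared at 2-fold with no p-value. Members named are those past 2-fold in any comparison and the 5 with the highest mean (IL4I1, IL17RA, IL4R, IL31RA and IL17RC), with up to 3 genes per signalling list and pair; IL18R1, IL32, IL24 and others were added after their values were seen. limma 3.58.1 in R 4.3.3 tested low against high glycan label with Benjamini-Hochberg adjustment. The code was tested on simulated data. The alternatives varied the pseudocount, filter, normalization, probe choice and fold threshold. Members and lists were chosen with earlier results of these data known.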

Additional observations from a re-analysis of the deposited data

Results flagged for a closer look

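The following genes were past 2-fold in 1 labelled pair while the other pair had the opposite sign, which drew attention to them. The difference between the pairs was not tested, as each has 1 array a side. IL18 had a log2 difference of −3.10 for PC3-L minus PC3-H and 0.0787 for the array labelled LNCaP-AI minus LNCaP, and IL7R had −1.37 and 0.35. Of the signalling genes past 2-fold in the PC3 pair, NEK7 had 1.13 and −0.0467, STAT3 1.00 and −0.26, TAB2 1.23 and −0.0382, TBK1 1.12 and −0.48, TNIP1 −1.50 and 0.28, and IRAK2 −1.16 and 0.28, each in the same order of pairs. Those past 2-fold in the second pair were IRAK1, with −0.63 and 1.13, and MLKL, with −0.10 and 1.34.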

How the results depend on the processing

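No difference past 2-fold changed sign. The member median of the array labelled LNCaP-AI minus PC3-L did (0.02), at −0.25 with the filter at the 60th percentile, −0.02 after median centring and −0.03 after cyclic loess, as did 7 single-gene values near 0, among them IL4R in the PC3 pair (0.11, and −0.04 after quantile normalization). The median of LNCaP minus PC3-H (−0.10) was −0.27 with the filter at the 60th percentile. At 1.5-fold the PC3 pair had 4 members higher and 8 lower (main counts 2 and 2), the array labelled LNCaP-AI had 2 lower than LNCaP (1) and 2 lower than PC3-L (0), and LNCaP had 2 higher and 7 lower than PC3-H (1 and 3). At 3-fold the PC3 pair had 1 higher and 1 lower, the array labelled LNCaP-AI had 1 higher than LNCaP, and LNCaP had 0 higher than PC3-H. Shares of all genes at 1.5-fold and 3-fold are not given here, so these counts are not read as a shift of the members. A pseudocount of 16 left 1 member higher in each labelled pair, and a filter at the 60th percentile left 1 higher in the second pair. The limma count was 1 with an intensity trend and 0 in 8 other settings of the values and filter, where the smallest adjusted p of a member lay between 0.0900 and 0.441. With a pseudocount of 16 several single genes dropped under 2-fold: IL1RAP (0.85), NEK7 (0.96), TBK1 (0.98) and PYCARD (−0.95) in the PC3 pair, IL7 (0.71), CXCL8 (0.71) and MAP3K7 (0.99) in the second, and IL4R (−0.88) between LNCaP and PC3-H, all as log2 differences. MAP3K7 in the PC3 pair was at 0.93 after quantile normalization. The other 76 counts stayed within 1.5 times their main count. No array could be left out of the limma fit, since no residual degree of freedom would remain. The limma fit pairs the arrays by labelled line, with 1 low and 1 high array in each. No other pairing was possible, because the labels give no replicate numbers shared between groups. Dim arrays limit the folds of IL18, IL24, IL37 and IL7.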
